A study of Arabidopsis thaliana with 12 samples.

Results

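Seeds of the KD genotype were compared with wild-type (WT) seeds at 16 days after flowering (16DAF), near the end of Arabidopsis seed maturation. The comparison was defined by the sample titles and took 4 of the 12 arrays of the series, 2 labelled KD and 2 labelled WT. All 12 arrays held RNA of excised seeds of the ecotype Wassilewskija, grown on soil in a greenhouse at about 23 °C under long days, and the other 8 arrays were KD and WT seeds at 14DAF and in the dry state. Flowers were marked so that seeds of known age could be dissected from the siliques, and each extraction pooled a large number of seeds. KD is not spelled out in the labels. The series is titled as an altered lysine metabolism genotype and cites Zhu and Galili, whose work combined a knockout of the lysine-degrading enzyme LKR/SDH with a seed-expressed bacterial dihydrodipicolinate synthase. The sources used here do not tell which of these changes the KD plants carried.

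Lysine is made from aspartate through a pathway that also leads to threonine and methionine, and its synthesis is held back by feedback of lysine on dihydrodipicolinate synthase. LKR/SDH is a bifunctional enzyme that starts lysine breakdown, so that the free lysine of a seed reflects both arms. Maturing seeds fill with storage proteins and oil, lose their photosynthetic transcripts, and build up late embryogenesis abundant (LEA) proteins before they dry. Translation in these cells depends on cytosolic ribosomes, whose proteins are encoded by families of near-identical genes.

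Transcripts were read on Affymetrix ATH1 arrays, on which each probe set is a group of short oligonucleotides. Signals are given on the log2 scale of the deposited values, and a difference of 1 on that scale is a 2-fold change. Replicate arrays correlated at 0.983 in WT 16DAF and 0.991 in KD 16DAF across probe sets, and each of the 12 arrays correlated best with its own group partner. The array medians were 5.11 and 5.2 in WT and 5.08 and 5.11 in KD. The difference between 3′ and 5′ signals of control transcripts, which tracks RNA integrity and labelling, was 2.69 and 3.36 in WT against 2.49 and 2.67 in KD; its part in the results was not tested. In bulk seed RNA, fewer cells of a type and less RNA per cell cannot be told apart.

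The source name of WT 16DAF replicate 1 describes KD seeds of that age, against its title, description and genotype label. The title was followed. This array correlated at 0.983 with WT replicate 2 and at 0.974 and 0.965 with the KD replicates. Of the 2198 probe sets that passed the test without it, 1554 (70.7%) had a value on this array nearer to WT replicate 2 than to the KD mean. Results are given with and without this array. The source name of KD dry replicate 1 likewise names WT, against its title, and the title was followed there too. For LKR/SDH, the ribosomal list and the calls as a whole, dry-seed values are also given without that array. The dry-seed differences of other single genes include it. Nothing in the labels says that replicates came from separate plants, so the p-values measure only how far these samples spread, and that spread may be technical.

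LKR/SDH (AT4G33150), the gene of lysine catabolism on which the cited genotype was built, had signals of 9.8 and 10.61 in the WT arrays and 13.01 and 13.37 in the KD arrays at 16DAF. Both libraries labelled KD lay above both labelled WT. The log2 difference was 2.98 (SE 0.267, 7.92-fold, limma adjusted p = 0.000284), or 2.58 without WT replicate 1 (adjusted p = 0.000824). In the arrays of the other stages, which enter the 16DAF test only through its spread, the difference was 3.24 at 14DAF. In dry seeds it was 3.8, or 3.79 without KD dry replicate 1. Its change between stages did not pass the test of the difference (adjusted p = 0.83 against 14DAF and 0.379 against dry seeds). The sources used here do not place this probe set against an insertion, so a high signal does not test whether a functional enzyme is made. The plot of 6 genes by array shows these values beside those of the genes that follow.

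**Figure D1:**
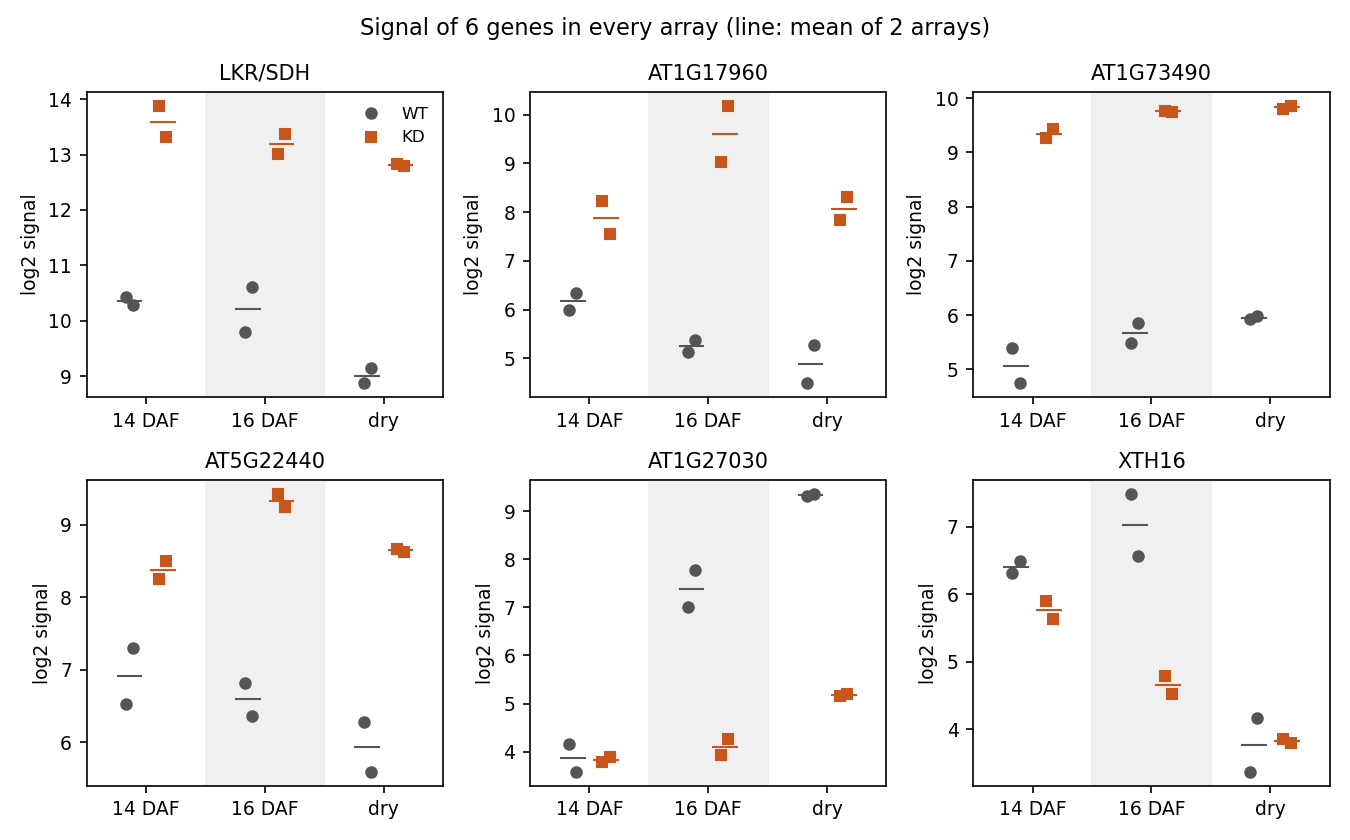
Log2 signal of 6 genes (vertical axis) in every array by stage (horizontal axis), with WT arrays as grey circles, KD arrays as orange squares, a line at each mean of 2 arrays and 16DAF shaded. At 16DAF the KD arrays of LKR/SDH lie at 13.01 and 13.37 against 9.8 and 10.61 in WT, while those of AT1G27030 lie at 3.93 and 4.26 against 7.01 and 7.77.

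Of 22746 probe sets tested, 1188 were higher in KD (5.22%) and 1337 lower (5.88%) at an adjusted p under 0.05 from limma, 2525 in all (11.1%). The WT and KD arrays did not overlap for any of them, which was also so for 10967 of all 22746 probe sets. The median difference was 0.99 among the higher and -0.88 among the lower, and 586 and 485 of them differed at least 2-fold. Differences of at least 4-fold numbered 65 higher and 38 lower. Over all probe sets the median difference was -0.02. Without WT replicate 1 there were 897 higher (3.94%) and 1301 lower (5.72%), and 1604 probe sets passed in both fits with the same sign. The counts depended on the KD arrays: they were 892 and 622 without KD replicate 1 and 491 and 528 without KD replicate 2.

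**Figure D2:**
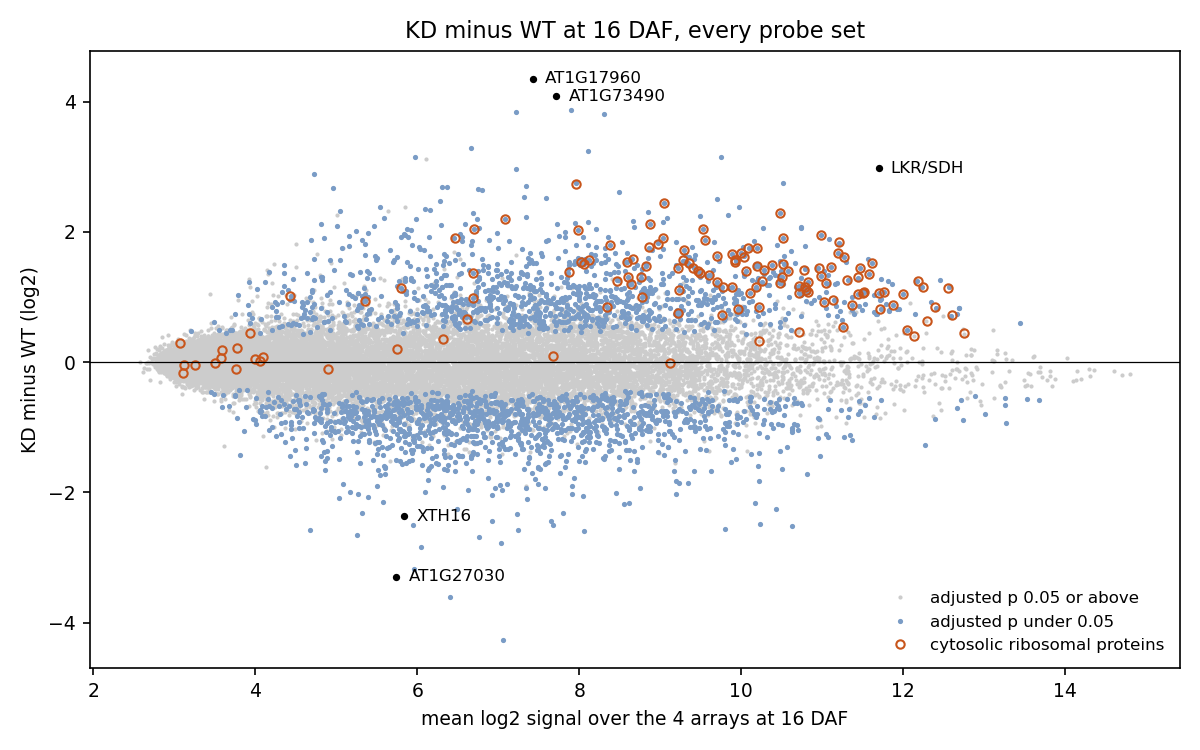
KD minus WT log2 difference at 16DAF (vertical axis) against the mean log2 signal of the 4 arrays (horizontal axis) for every probe set, with probe sets past the threshold in blue, the others in grey, and cytosolic ribosomal proteins ringed in orange. The ringed probe sets above a mean of about 5 lie almost all above zero, while the blue points as a whole divide into 1188 higher and 1337 lower.

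Counts of list members that passed are read against these shares over all probe sets. They cover measured members alone, as many genes of the lists had no probe set naming them. Measured were 130 of 221 ribosomal genes, 36 of 52 LEA genes, 16 of 42 tRNA synthetases and 11 of 25 genes of amino acid catabolism. Coverage was lower for heat shock (9 of 24), aspartate family (8 of 41), photosynthesis (11 of 69), fatty acid and oil synthesis (6 of 38) and seed regulators (2 of 33). Among the gene lists, the cytosolic ribosome held the most higher transcripts. Of 130 measured probe sets for its proteins, 106 were higher in KD and 0 were lower, against 5.22% higher over all probe sets. The 60S subunit contributed 68 of 83 (median 1.3) and the 40S subunit 38 of 47 (median 1.1), so a typical member stood 2.34-fold above WT. Without WT replicate 1 the count was 90 of 130, and leaving out single arrays gave 75 to 104. The lowest of these counts came from leaving out KD replicate 2.

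Signal strength separated the ribosomal genes that passed from those that did not. Among members with a mean of log2 8 or above over all 12 arrays, 94 of 100 were higher, compared with 11.2% of the 3820 other probe sets as bright. Between log2 5 and 8, 11 of 15 were higher, compared with 7.12% of the others. Below log2 5 it was 1 of 15, with a median difference of 0.04. Several ribosomal genes have near-identical copies, and the probe sets may read more than one of them, so the gene within a family is uncertain.

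The 60S gene AT5G22440 had signals of 6.82 and 6.36 in WT and 9.42 and 9.25 in KD. This was the largest ribosomal difference, at 2.74 (SE 0.284, 6.7-fold, adjusted p = 0.000561; 2.98 without WT replicate 1). AT2G37190, also of the 60S subunit, stood at 9.3 and 9.37 in WT and at 11.52 and 11.73 in KD. Each pair of replicates was close together and far from the other genotype, with a difference of 2.29 (SE 0.256, adjusted p = 0.00075; 2.26 without WT replicate 1). AT3G28900 and AT2G37600 of the same subunit differed by 2.44 (SE 0.283) and 2.2 (SE 0.277), or 2.06 and 2.03 without WT replicate 1.

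In the 40S subunit the largest difference was that of AT5G28060, with signals of 5.44 and 5.91 in WT and 7.63 and 7.8 in KD (2.04, SE 0.293, adjusted p = 0.00214; 1.8 without WT replicate 1). AT3G57490 (1.87, SE 0.254), AT3G04920 (1.8, SE 0.351), AT3G56340 (1.75, SE 0.191) and AT5G61170 (1.72, SE 0.191) followed, at 1.78, 1.46, 1.9 and 1.68 without that array. PGY1, which encodes a protein of the 60S subunit and is known for its part in leaf polarity, measured 9.69 and 10.45 in WT and 11.31 and 11.68 in KD (1.42, SE 0.243, adjusted p = 0.00484; 1.04 without WT replicate 1).

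Ribosome biogenesis genes, whose products process ribosomal RNA and assemble the subunits, were higher as well. Of 13 measured, 11 were higher and 0 lower (median 1.2), or 10 without WT replicate 1 and 7 without KD replicate 2. AT1G52930 had signals of 7.58 and 8.39 in WT and 9.94 and 10.45 in KD, with no overlap between the genotypes. Its difference was 2.21 (SE 0.248, adjusted p = 0.000754), or 1.8 without WT replicate 1. AT3G12860 differed by 1.84 (SE 0.195), AT5G60990 by 1.7 (SE 0.319) and AT4G28450 by 1.66 (SE 0.164), or 1.72, 1.56 and 1.56 without WT replicate 1.

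Aminoacyl-tRNA synthetases charge tRNAs with amino acids. All 16 measured differences were above zero (0.19 to 0.98, median 0.47), and 6 of the 16 passed (37.5%, against 5.22% higher over all probe sets), led by AT5G38830 at 0.98 (SE 0.218, adjusted p = 0.0179). These calls rested on single arrays: 2 passed without WT replicate 1, and 0 without KD replicate 2. AT5G38830 then measured 0.74 (adjusted p = 0.0887) and 0.86 (adjusted p = 0.122).

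**Figure D3:**
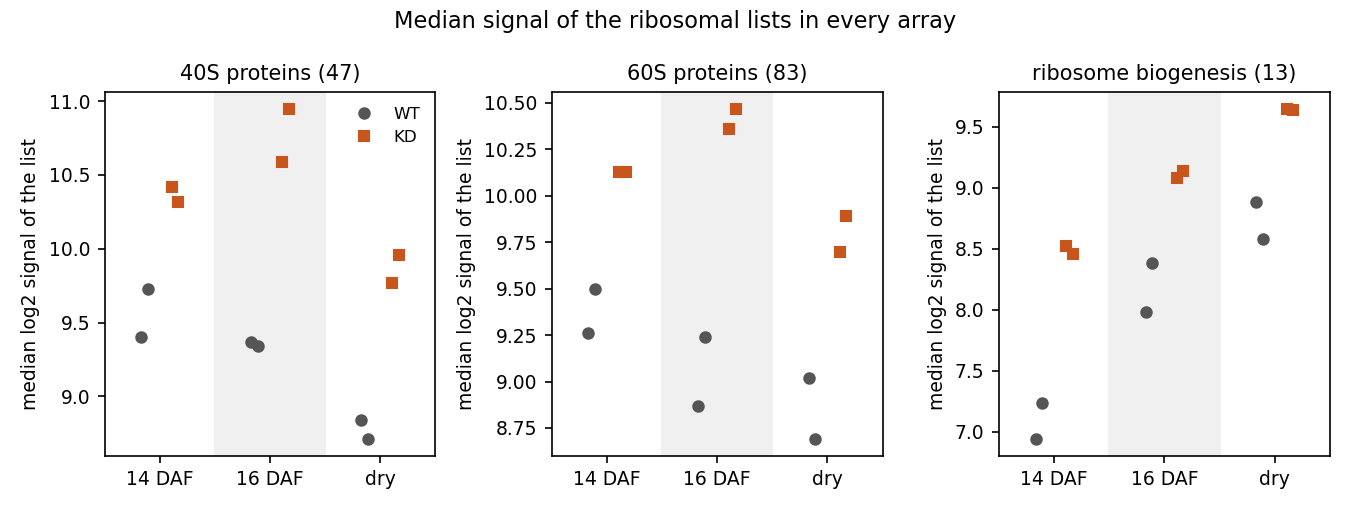
Median log2 signal of the 40S, 60S and ribosome biogenesis lists (vertical axes) in every array by stage (horizontal axis), WT as grey circles, KD as orange squares. At 16DAF the 60S medians were 8.87 and 9.24 in WT and 10.36 and 10.47 in KD, and in each panel both KD arrays lie above both WT arrays at every stage.

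The list medians by array followed the same order. The 40S median was 9.37 and 9.34 in WT and 10.59 and 10.95 in KD at 16DAF. The 60S median was 8.87 and 9.24 in WT and 10.36 and 10.47 in KD. The biogenesis median was 7.98 and 8.38 in WT and 9.08 and 9.14 in KD. The KD arrays were above the WT arrays in all of these. At 14DAF, in other arrays, 51 of the 130 ribosomal probe sets were higher and 0 lower (median 0.64, against 3.35% higher over all probe sets), and in dry seeds 78 were higher and 0 lower (median 0.88, against 4.01%). Without KD dry replicate 1 the dry count was 49 higher and 0 lower (median 0.9), beside 508 higher over all 22746 probe sets. The difference between stages passed for 1 of the 130 against 14DAF, where 0.356% of all probe sets passed. Against dry seeds it passed for 3, with 2 higher and 1 lower, where 1.38% of all passed. So few probe sets passed anywhere that these counts are no result about the ribosomal genes.

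In the aspartate family, 8 genes were measured, of which 3 were higher and 1 lower (median 0.12), or 2 and 1 without WT replicate 1, against 5.22% and 5.88% over all probe sets. Apart from LKR/SDH, AT1G14810 was higher, with 7.72 and 7.41 in WT and 9.0 and 9.3 in KD (1.58, SE 0.232, adjusted p = 0.00232; 1.74 without WT replicate 1). ASPGB1, an asparaginase that releases aspartate from asparagine, was lower by a smaller margin (-0.60, SE 0.137, adjusted p = 0.0187). Its call was kept without WT replicate 1 (-0.71) and not without WT replicate 2 (adjusted p = 0.0893), KD replicate 1 (0.1) or KD replicate 2 (0.0788). AT3G53580 differed by 0.56 (adjusted p = 0.0467), and did not pass without WT replicate 1 (0.161), WT replicate 2 (0.0727) or KD replicate 2 (0.293).

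HMT-1, a homocysteine methyltransferase that forms methionine and lay outside that list, was among the largest increases. Its signals were 4.07 and 4.89 in WT and 5.94 and 7.44 in KD, so the KD replicates differed from each other by more than the WT replicates did. The difference was 2.21 (SE 0.427, adjusted p = 0.00878), and 1.8 without WT replicate 1 (adjusted p = 0.043). Of 11 genes of amino acid catabolism, 1 was higher and 0 lower (9.09% higher against 5.22% over all probe sets, median 0.24). This was ETFBETA, a subunit of the flavoprotein that takes electrons from the breakdown of branched-chain amino acids and lysine (1.06, SE 0.221, adjusted p = 0.0128; 1.08 without WT replicate 1), whose call was lost without KD replicate 2 (adjusted p = 0.0879). MCCA (-0.44) and MCCB (0.40), the subunits of methylcrotonyl-CoA carboxylase in leucine breakdown, did not pass.

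In the TCA cycle, 4 of 21 probe sets were higher (19%, against 5.22% over all probe sets) and 0 lower (median 0.22). SDH2-1, an iron-sulphur subunit of succinate dehydrogenase, had 7.67 and 7.73 in WT and 8.6 and 9.03 in KD. This probe set differed by 1.12 (SE 0.16, adjusted p = 0.00216), or 1.08 without WT replicate 1. Another SDH2-1 probe set, dim with a mean of 3.28 at 16DAF, differed by 0.05 (adjusted p = 0.89). AT2G20420 differed by 1.04 (SE 0.155; 0.93 without WT replicate 1), AT5G23250 by 1.0 (SE 0.232) and AT5G14590 by 0.55 (SE 0.13). Both of the last lost the call without WT replicate 1 (adjusted p = 0.0659 and 0.0621), and 2 of the 21 passed without KD replicate 2, beside 491 higher over all 22746.

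The storage protein list had 7 of its 15 genes measured, PAP85 and 6 given by locus code alone. None of the 7 passed (0 higher, 0 lower, median -0.14), nor did any of 4 oil body genes (differences of 0.05 to 0.22), 6 genes of fatty acid and oil synthesis (-0.21 to 0.60) or 2 of reserve mobilisation (0.07 and 0.26). Over all probe sets 11.1% passed, so that 0 calls in lists of this size is no result about them. PAP85, a vicilin-like storage protein gene, measured 14.23 and 14.26 in WT and 13.88 and 14.03 in KD (-0.29, adjusted p = 0.256). OLEO3, an oleosin that coats oil bodies, measured 13.39 and 12.99 in WT and 13.28 and 13.38 in KD (0.14, adjusted p = 0.817). AT2G18540 of the storage list had the largest value, 1.1 (adjusted p = 0.0523).

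Of 36 measured LEA genes, whose products protect cells during drying, 3 were higher (8.33%) and 1 lower (2.78%), or 2 and 1 without WT replicate 1. These shares are near the 5.22% and 5.88% over all probe sets, and the list's median was 0.07. DI21, a drought-induced gene, had 6.12 and 5.97 in WT and 8.46 and 8.71 in KD (2.54, SE 0.306, 5.82-fold, adjusted p = 0.000931; 2.62 without WT replicate 1). AT2G44060, given as LEA26 in the gene table, differed by 1.3 (SE 0.207; 1.37 without WT replicate 1). The dehydrin gene COR47 was lower by a similar margin (-1.25, SE 0.228; -1.44 without WT replicate 1), with adjusted p = 0.0596 without KD replicate 2. LEA4-5 differed by 1.2 (adjusted p = 0.0301), but by 0.65 without WT replicate 1 (adjusted p = 0.11) and 0.94 without KD replicate 2 (0.192). How many of the 36 passed depended on which WT array was kept. More were higher without WT replicate 2 than with all arrays, and fewer without WT replicate 1. The shares near those over all probe sets are thus those with all arrays kept. The list's median was -0.06 without WT replicate 1 and 0.1 without WT replicate 2.

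Of 5 genes of the ER folding list, 0 were higher and 2 lower (median -0.94), or 1 lower without WT replicate 1, against 5.88% lower over all probe sets. ATERDJ3B, a DnaJ partner of the ER chaperone BiP, had 9.1 and 9.35 in WT and 7.68 and 7.84 in KD, with no overlap. The difference was -1.46 (SE 0.194, adjusted p = 0.00146), or -1.59 without WT replicate 1. AT5G07340 differed by -0.94 (adjusted p = 0.0176), a call lost without WT replicate 1 (0.0621), KD replicate 1 (0.0531) or KD replicate 2 (0.115). Calreticulin CRT1b (-1.01, adjusted p = 0.0635) did not pass, and BZIP28 and BZIP60 of this list, which are transcription factors of the ER stress response, measured -0.12 and -0.04.

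Of 9 heat shock genes, 0 were higher and 2 lower (22.2%, against 5.88% over all probe sets, median -0.56). Hop3, a co-chaperone that links Hsp70 and Hsp90, had 5.32 and 5.92 in WT and 4.03 and 4.16 in KD (-1.52, SE 0.277, adjusted p = 0.0065; -1.82 without WT replicate 1). AT1G53540 differed by -1.58 (adjusted p = 0.0391), and did not pass without WT replicate 2 (0.146), KD replicate 1 (0.216) or KD replicate 2 (0.0745). Without WT replicate 1, which lay between KD and WT replicate 2 for several of these genes, 5 of the 9 were lower. Without each of the other 3 arrays it was 1.

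Among 11 nuclear photosynthesis genes 1 was higher and 0 lower (9.09% higher against 5.22% over all probe sets, median 0.25), or 2 and 0 without WT replicate 1. This was SBPASE, sedoheptulose-bisphosphatase of the Calvin cycle, with 5.59 and 5.25 in WT and 6.48 and 6.5 in KD (1.07, SE 0.217, adjusted p = 0.0112; 1.24 without WT replicate 1). Its adjusted p was 0.053, 0.054 and 0.068 without WT replicate 2, KD replicate 1 and KD replicate 2. Geranylgeranyl reductase (AT1G74470), which supplies the chlorophyll side chain, was the only one of 5 chlorophyll synthesis genes to pass (1.87, adjusted p = 0.0269). Without any one of the 4 arrays its adjusted p was 0.0616 to 0.144, and its WT signals of 4.33 and 4.43 lay below the array medians. NOL, a chlorophyll b reductase and the one gene measured for chlorophyll breakdown, differed by 0.77 (adjusted p = 0.0112; 0.80 without WT replicate 1), with adjusted p = 0.0728 and 0.0503 without KD replicates 1 and 2.

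Of 69 measured genes of the plastid genome, 1 was higher (1.45%) and 5 lower (7.25%), against 5.22% and 5.88% over all probe sets. Their median was 0.13, with 43 differences above zero and 26 below. The lower ones were psaA and psaB of the photosystem I core, psbA and psbC of photosystem II, and psbZ of the same complex. psaB had 13.33 and 13.49 in WT and 12.63 and 12.6 in KD (-0.80, SE 0.122, adjusted p = 0.003; -0.88 without WT replicate 1). psbC differed by -0.66 (SE 0.136), psaA by -0.58 (SE 0.155) and psbA by -0.57 (SE 0.143). Without WT replicate 1, psbA passed (-0.66, adjusted p = 0.0414), while psbC (0.0575), psaA (0.133) and psbZ (0.142) did not. The higher one was atpH, a subunit of the plastid ATP synthase (0.78, SE 0.166; 0.77 without WT replicate 1). Without WT replicate 1 the counts were 2 higher and 2 lower, without WT replicate 2 they were 2 and 2, and without KD replicate 2 they were 0 and 1.

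**Figure D4:**
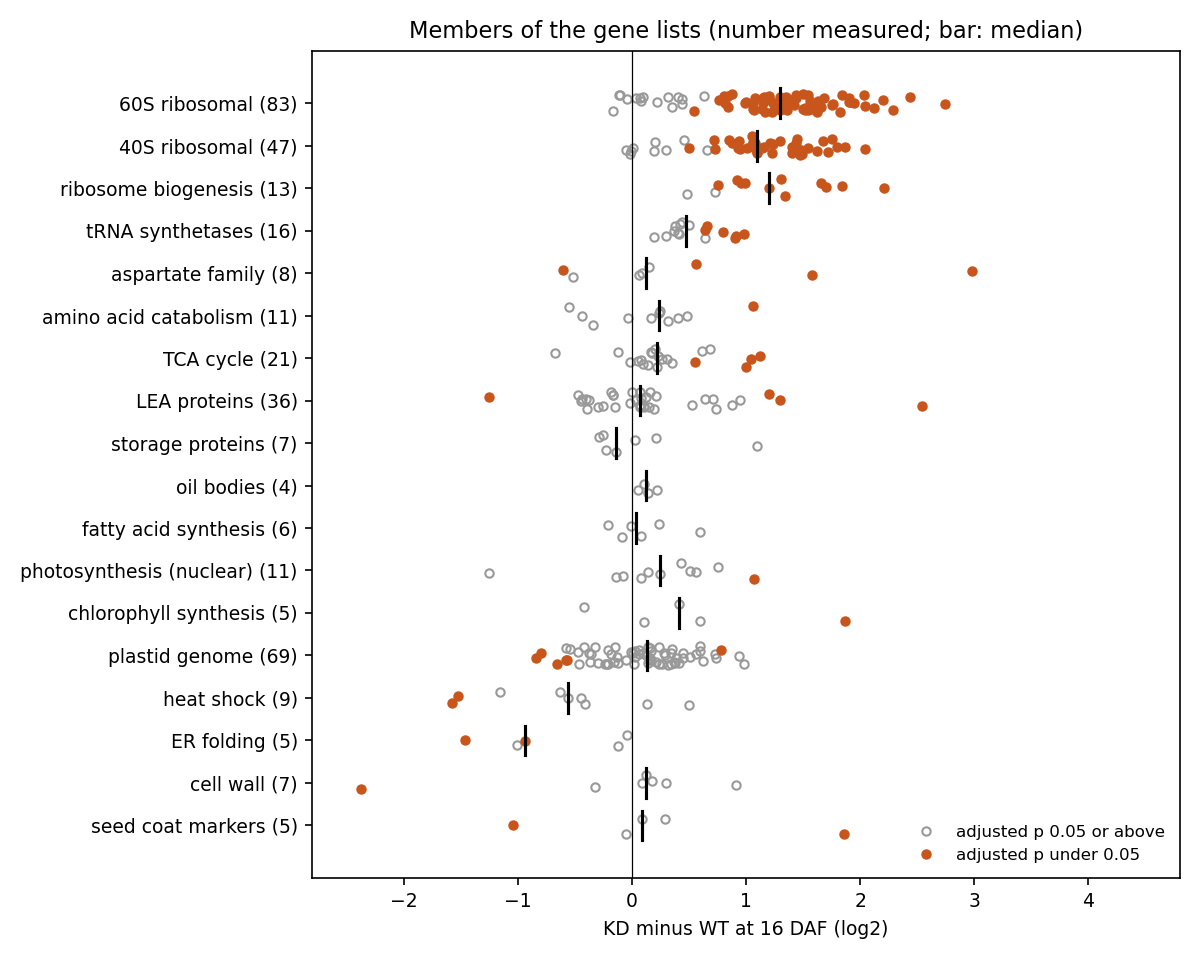
KD minus WT log2 difference at 16DAF (horizontal axis) for the measured members of 18 gene lists, with members past the threshold filled and a bar at each list's median; the number measured follows the list's name. The ribosomal lists lie to the right with medians of 1.3, 1.1 and 1.2, the ER folding list has a median of -0.94, and the reserve lists lie around zero.

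Markers of other seed tissues were read for every measured member of their lists. These were 5 of 23 seed coat genes, 2 of 10 endosperm genes and 1 of 7 silique wall and funiculus genes, so most markers are not covered. Among 5 seed coat genes 1 was higher and 1 lower, against 5.22% and 5.88% over all probe sets. Their median signal was 5.44 and 5.81 in the WT arrays and 6.4 and 6.24 in the KD arrays, and their mean signal was 5.95 and 5.93 against 6.17 and 6.19. Both KD arrays lay above both WT arrays on either measure, but the members did not move together. The median of their differences was 0.09, with 3 above zero and 2 below, from -1.04 to 1.86. With 5 genes, the median signal can fall on a different gene in each array, and 1 gene can move the mean. The higher one was DELTA-VPE, a protease of the vacuolar processing enzyme family active in the inner seed coat (1.86, adjusted p = 0.0267; adjusted p = 0.0932 without WT replicate 1, 0.0627 and 0.157 without KD replicates 1 and 2). The lower one was the subtilase ARA12, which acts in mucilage release (-1.04, adjusted p = 0.016; 0.0795 without WT replicate 1 and 0.125 without KD replicate 2). BAN and DFR, enzymes of seed coat pigment synthesis, measured 0.09 and -0.05. The part of the seed coat in the results was not tested. The 2 endosperm genes, IKU2 (-0.19) and AGL62 (0.18), did not pass, and all their signals lay below the array medians. ALC, the one gene measured for silique wall, was dim in every array and differed by -0.44 (adjusted p = 0.036), with adjusted p of 0.0825 to 0.17 without any one of the 4 arrays.

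EEL, a bZIP factor of the ABA-responsive group, differed by -0.56 (adjusted p = 0.0299, and 0.062 to 0.159 without any one of the 4 arrays), and BZIP53 by 0.83 (adjusted p = 0.0903), with 1 of 2 seed regulators passing. XTH16, an enzyme that cuts and rejoins xyloglucan in the cell wall, was the 1 of 7 cell wall genes that passed. Its signals were 7.48 and 6.57 in WT and 4.79 and 4.52 in KD (-2.37, SE 0.306, 5.17-fold, adjusted p = 0.00129; -1.92 without WT replicate 1). None of 2 genes of pipecolate and salicylate metabolism passed (-0.12 and -0.04), and the replication gene PRL, the one measured in its list, differed by 0.01.

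The single largest increase belonged to AT1G17960, with 5.13 and 5.37 in WT and 9.02 and 10.18 in KD. This was a difference of 4.35 (SE 0.388, 20.4-fold, adjusted p = 0.000277), or 4.23 without WT replicate 1. AT1G73490 had 5.49 and 5.86 in WT and 9.77 and 9.75 in KD (4.08, SE 0.203, 17-fold, adjusted p = 3.66e-05; 3.9 without WT replicate 1). It stood as far above WT at 14DAF (4.28) and in dry seeds (3.88). AT1G71691 followed with 6.75 and 6.04 in WT and 9.92 and 10.5 in KD (3.82, SE 0.325, adjusted p = 0.000222; 4.17 without WT replicate 1). The gene table gives these genes by locus code alone.

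Among other large increases, VTC4, a phosphatase in ascorbate and inositol synthesis, had 6.83 and 7.24 in WT and 9.06 and 9.32 in KD. The difference was 2.15 (SE 0.189, 4.45-fold, adjusted p = 0.000267), or 1.95 without WT replicate 1. AT1G68670 (2.97, SE 0.228), AT5G18470 (2.68, SE 0.388) and AT5G19730 (2.47, SE 0.275) were given by locus alone, at 2.91, 2.51 and 2.49 without WT replicate 1. The 20 largest increases ranged from 4.35-fold to 20.4-fold. Each of the 20 passed without any one of the 4 arrays, and 4 of them were ribosomal proteins.

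The largest decrease among called probe sets naming 1 gene was that of AT1G27030, with 7.01 and 7.77 in WT and 3.93 and 4.26 in KD. The difference was -3.30 (SE 0.251, 9.82-fold, adjusted p = 0.000127), or -3.68 without WT replicate 1. AT1G54050 had 6.6 and 8.5 in WT, a wide spread, and 4.35 and 4.38 in KD (-3.18, SE 0.541, adjusted p = 0.00479; -4.14 without WT replicate 1). The KD signals of both genes lay below the array medians, which makes the size of these falls uncertain.

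Some decreases were large in bright probe sets. AT5G11420 had 11.66 and 11.47 in WT and 9.44 and 9.17 in KD (-2.26, SE 0.247, 4.79-fold, adjusted p = 0.00071; -2.16 without WT replicate 1). AT5G22460 had 11.14 and 11.82 in WT and 8.93 and 9.06 in KD (-2.48, SE 0.345; -2.82 without that array). AT4G24110 had 11.32 and 11.17 in WT and 9.11 and 9.06 in KD (-2.16, SE 0.309; -2.08 without that array). WT and KD arrays were well apart in all of these, and none of these genes has a name beyond its locus code. Of the 20 largest decreases, all 20 passed without WT replicate 1 and 16 without any one of the 4 arrays. Those losing the call were AT1G63540 (adjusted p = 0.0555 without KD replicate 2), AT1G52560 (0.0699 without KD replicate 1), AT5G62730 (0.0786 without KD replicate 2) and AT1G76230 (0.0616 without WT replicate 2 and 0.113 without KD replicate 2).

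Genes that carry a symbol in the gene table were also ranked, a choice made after the values had been seen; 73 of the higher and 96 of the lower calls carry one, and the 15 largest in each direction were taken, those of the lists above included. PDF1.2, a plant defensin known as a marker of jasmonate and ethylene responses, had 3.91 and 3.87 in WT and 5.85 and 5.75 in KD. Its difference was 1.91 (SE 0.12, 3.76-fold, adjusted p = 7.23e-05), or 1.93 without WT replicate 1. TROL, a thylakoid protein that anchors ferredoxin-NADP reductase, had 5.08 and 4.72 in WT and 6.99 and 6.88 in KD (2.04, SE 0.225, adjusted p = 0.000723; 2.22 without WT replicate 1). SWEET6, of a family of sugar transporters, had 5.05 and 6.14 in WT and 7.45 and 7.57 in KD (1.92, SE 0.296; 1.37 without WT replicate 1).

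ATRBP45C, an RNA-binding protein, differed by 1.51 (SE 0.173; 1.4 without WT replicate 1). TRM82, a tRNA modification factor, differed by 1.4 (SE 0.2; 1.3 without WT replicate 1). TBL28, of a family that acetylates wall polysaccharides, differed by 1.92 (SE 0.302; 2.12 without that array). TRM22 (1.92, SE 0.224), CP5 (1.94, SE 0.208) and the tetraspanin TET7 (1.62, SE 0.291) were higher too, at 2.08, 1.78 and 2.12. CSLC12, a glucan synthase of xyloglucan formation, differed by 1.42 (1.73 without WT replicate 1), but did not pass without WT replicate 2, KD replicate 1 or KD replicate 2 (adjusted p = 0.0948, 0.0695 and 0.118).

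Among lower genes with a symbol, SDP1-LIKE, related to the triacylglycerol lipase SDP1, had 6.04 and 5.52 in WT and 4.22 and 4.37 in KD (-1.48, SE 0.232, adjusted p = 0.00316; -1.23 without WT replicate 1). POL, a phosphatase of stem cell maintenance, differed by -1.56 (SE 0.237; -1.16 without that array). CHR42, a chromatin remodelling gene, differed by -1.22 (SE 0.148; -1.06), and the microtubule-associated ATMAP65-6 by -1.31 (SE 0.204; -1.09). AOP1 (-1.62, SE 0.273; -1.82) and the subtilase SBT3.12 (-1.26, SE 0.215; -1.24) were lower as well.

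The other 5 of the 15 largest decreases with a symbol, beside those already described, each lost the call without at least 1 array. AGO7, the argonaute of trans-acting small RNAs, differed by -1.38 (adjusted p = 0.0141, and 0.113 without KD replicate 2), and the transcription factor bZIP44 by -1.37 (0.0555 without KD replicate 2). CYP71B26, a cytochrome P450, differed by -1.47 (0.0532 and 0.0581 without KD replicates 1 and 2), and the tetraspanin TET10 by -1.31 (0.0982 without KD replicate 1). YLMG1-2 differed by -1.23, with adjusted p = 0.103 without WT replicate 1, 0.0688 without KD replicate 1 and 0.139 without KD replicate 2.

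The same genotype contrast was read at 14DAF and in dry seeds. The values of those arrays do not enter the 16DAF difference, but they do enter the spread used to test it. Calls at different stages share that spread for each probe set, so they are not independent of one another. Of the 1188 probe sets higher at 16DAF, 1016 (85.5%) were also above WT at 14DAF and 1019 (85.8%) in dry seeds. Of the 1337 lower, 1149 (85.9%) and 1105 (82.6%) were also below. Over all probe sets the sign was shared by 61.6% and 61.1%. The higher probe sets passed with the same sign in 433 cases at 14DAF and 410 in dry seeds, and the lower ones in 296 and 319, while passing calls of the opposite sign numbered 13, 13, 6 and 8. Over all probe sets 3.35% were higher and 3.92% lower at 14DAF, and 4.01% and 3.9% in dry seeds. Without KD dry replicate 1, 1001 of the higher probe sets (84.3%) and 1055 of the lower (78.9%) kept the sign in dry seeds, against 59.3% of all, and 235 and 158 passed with it.

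**Figure D5:**
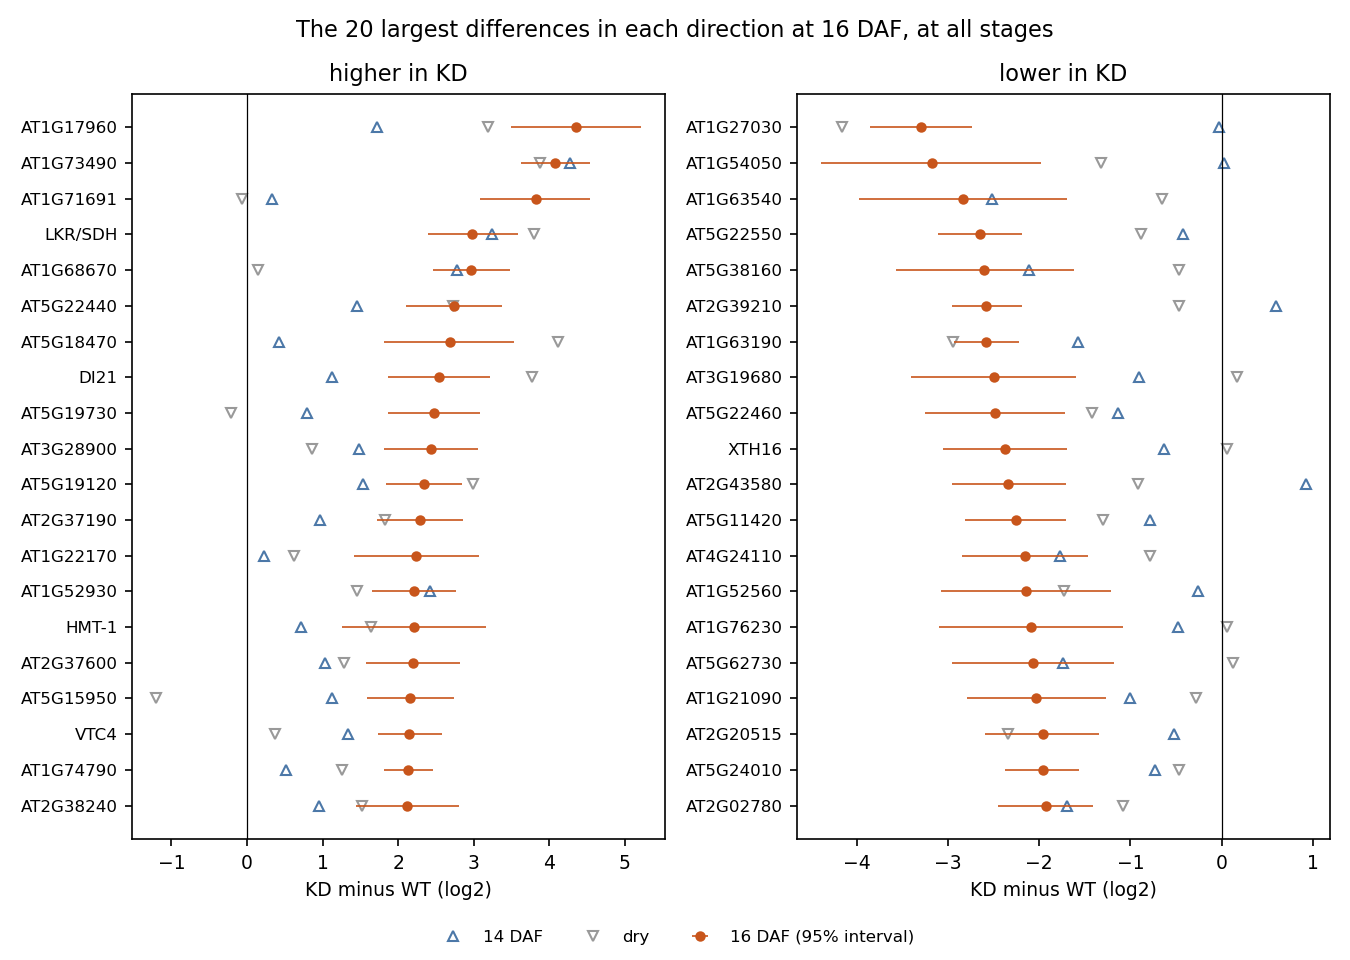
KD minus WT log2 difference (horizontal axis) at 16DAF with its 95% interval from the model (orange), at 14DAF (upward triangles) and in dry seeds (downward triangles), for the 20 largest increases and the 20 largest decreases at 16DAF. AT1G73490 and LKR/SDH lie far to the right at every stage, whereas AT1G71691 measures 3.82 at 16DAF against 0.33 (14DAF) and -0.06 (dry).

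The difference at 16DAF minus that at 14DAF was tested for every probe set and passed for 81 (0.356%), and 16DAF minus dry seeds passed for 313 (1.38%). Among probe sets naming 1 gene AT1G71691 had the largest of both: WT went from 10.65 and 11.36 at 14DAF to 6.75 and 6.04 at 16DAF and KD stood at 11.49 and 11.17 and then at 9.92 and 10.5. TROL had 7.48 and 8.12 in WT at 14DAF against 5.08 and 4.72 at 16DAF, and 7.67 and 7.77 in KD against 6.99 and 6.88. In both genes the genotypes overlapped at 14DAF and stood apart at 16DAF. AT2G39210 went the other way: WT stood at 3.53 and 3.12 at 14DAF and at 8.51 and 8.55 at 16DAF, and KD at 3.84 and 4.0 and then at 5.87 and 6.04. Both counts rested on single arrays. The 14DAF count was 3 without WT 14DAF replicate 2, 458 without WT 14DAF replicate 1 and 205 without WT 16DAF replicate 1, and was 20 or lower without any one of the other 9 arrays. The dry count was 86 and 72 without KD dry replicate 1 and 2, 110 or lower without any one of the KD 16DAF and WT dry arrays, and 69 without both arrays of conflicting source names.

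The transcripts that differed at 16DAF were followed over maturation and drying in WT, from 14DAF to dry seeds. These arrays enter the 16DAF test only through its spread. By sign alone, 631 (53.1%) of the 1188 probe sets higher in KD were higher in dry WT seeds than at 14DAF. So were 711 (53.2%) of the 1337 lower ones, against 56.9% of all probe sets. At an adjusted p under 0.05 from limma, 39.2% of the 1188 passed as higher in dry WT seeds and 31.6% as lower. Of the 1337 it was 38.7% and 35.2%, against 25.8% and 21.5% of all probe sets. Of the 130 ribosomal probe sets 62 passed as lower and 7 as higher over this span in WT (median -0.51). Of the 13 ribosome biogenesis genes 11 passed as higher and 0 as lower (median 1.6).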

How the data were processed

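The authors deposited 1 log2 value per probe set and array, the scale being read from the values' range. RMA and Partek are the tools named per the submitters' processing notes, without settings. RMA aligns the arrays' distributions, so a shift of all transcripts together would be hidden. No detection calls were used. Of 22810 probe sets 64 controls were removed. In the platform annotation 13513 probe sets (59.4%) had 1 gene, 503 had several, and 8730 had none listed and are unnamed here; 13484 matched the TAIR10.1 gene table, 11933 of them with a name that is the locus code alone. Plastid genes were taken by that table's chromosome. RNA integrity was read from 2 control transcripts.

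limma 3.58.1 (R 4.3.3) fitted 6 group means over all 12 arrays with trend-free eBayes, on 6 residual degrees of freedom and 4.16 prior ones, with two-sided tests and Benjamini-Hochberg adjustment over all 22746 probe sets at 0.05. Data were simulated for the 16DAF comparison with 200 of the 22746 probe sets shifted and with independent noise. Of these, 68 of 100 shifts of 1 and 99 of 100 shifts of 2 on the log2 scale were recovered, with 13 false calls. A larger share passed in the real data (11.1%), so the rates there may differ. The number of arrays limits the precision.

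The comparison, the 25 gene lists and the members named were chosen with earlier results of these data known. Named were the 20 largest changes in each direction among 1-gene probe sets past the threshold without overlap, up to 5 members of each list by size, and the 5 largest stage differences each way; the text gives part of them. Python 3.11.15, pandas 2.3.3 and matplotlib 3.10.9 made tables and plots.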

Additional observations from a re-analysis of the deposited data

Results flagged for a closer look

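Each of the following genes was singled out because its KD minus WT difference at 16DAF differed from that at another stage in the test of the difference itself (limma, adjusted p under 0.05); values are log2 and positive where KD minus WT was greater at 16DAF. No explanation was tested for any of them.

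Against 14DAF, the difference was greater at 16DAF in AT1G71691 (3.49), TROL (2.12), ALDH11A3 (2.12), an aldehyde dehydrogenase, SBPASE (2.06), AT1G30515 (2.06), AT1G74790 (1.62), NOL (1.55) and SDH2-1 (1.54). It was smaller or more negative in AT1G27030 (-3.26), AT2G43580 (-3.25), AT2G39210 (-3.17), AT2G42560 (-2.90), AT3G53040 (-2.83) and AT5G22550 (-2.23). AT2G42560 and AT3G53040 belong to the LEA list and were above WT in KD at 14DAF by 3.06 and 3.54. At 16DAF they did not pass (0.16 and 0.71). The SDH2-1 value is that of the brighter of its probe sets.

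Against dry seeds, the difference was greater at 16DAF in AT1G71691 (3.88), AT5G15950 (3.36), AT1G68670 (2.83), AT5G19730 (2.68), AUR2, an Aurora kinase (2.54), TROL (2.08), TRM22 (1.91), PDF1.2 (1.88) and VTC4 (1.79). It was smaller or more negative in PDF1.4, a defensin-like gene (-3.15), AT1G72060 (-2.50), XTH16 (-2.42), AT1G22890 (-2.38), AT3G09440 (-2.37), AT2G39210 (-2.10), AT5G22550 (-1.77), AT5G24010 (-1.49) and CHR42 (-1.45). PDF1.4 stood above WT in dry KD seeds by 3.4 and measured 0.25 at 16DAF. Without KD dry replicate 1, whose source name conflicts with its title, 10 of these 18 differences against dry seeds passed and 4 of the 14 against 14DAF, the 14DAF fit sharing its estimate of spread with that array. Without WT 16DAF replicate 1, 17 of 18 and 14 of 14 passed.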

How the results depend on the processing

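With each of the 12 arrays left out in turn, 491 to 1232 probe sets were higher and 528 to 1326 lower at 16DAF, the ribosomal count was 75 to 104, LKR/SDH measured 2.58 to 3.39, and the stage differences gave 3 to 458 calls against 14DAF and 72 to 425 against dry seeds. From the arrays of each contrast alone, 456 were higher and 413 lower, with 69 ribosomal, 1 against 14DAF and 176 against dry seeds. Without both arrays of conflicting source names, 735 were higher, and 69 passed against dry seeds. With a variance trend, 53 passed against 14DAF. Of 104 named genes past the threshold, 58 kept the call in all 19 alternatives, 46 lost it in at least 1 and 0 reversed. Centring the arrays moved the share of higher calls from 47% to 55.9%; EEL, ALC and psbZ then lost their calls (adjusted p = 0.0575, 0.0765 and 0.0671).

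Same-numbered WT and KD 16DAF arrays deviated together (r = 0.417), while other pairs ranged from -0.33 to 0.277. The other pairs cannot tell whether the 16DAF arrays alone were paired, and this was not tested. The replicate block fits a single replicate effect over all stages, so it would not remove a pairing at 16DAF alone. With the replicate block, 1041 were higher and 1089 lower, 103 ribosomal; 22 passed against 14DAF and 164 against dry seeds, and LKR/SDH kept 2.98.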

Other observations

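In WT, 8 of 9 heat shock genes passed as higher in dry seeds than at 14DAF and 0 as lower (median 2.36). Of 36 LEA genes, 19 passed as higher and 4 as lower (median 1.15), against 25.8% and 21.5% over all probe sets. Hop3 measured 4.54 and 4.08 in WT at 14DAF, 5.32 and 5.92 at 16DAF and 8.65 and 8.46 in dry seeds, while in KD it measured 3.92 and 3.42, then 4.03 and 4.16, then 7.24 and 7.9. AT1G27030 measured 4.16 and 3.58, then 7.01 and 7.77, then 9.31 and 9.35 in WT, while in KD it measured 3.79 and 3.88, then 3.93 and 4.26, then 5.16 and 5.19.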
